A study of Sus scrofa with 22 samples.

Results

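Interferon gamma (IFNG), genes that it induces and the chemokines among them were followed in the jejunal mucosa of Ossabaw pigs, a miniature breed prone to obesity. The set was defined by name: IFNG, CXCL9, CXCL10, CXCL11, WARS, IRF1, IRF8, GBP1, GBP2 and SOCS1. Of these 10 names, 9 were found among the 24358 gene rows of the count tables, and no row was named GBP1. All 9 were among the 13626 genes that passed the filter on low counts and were tested. The row ENSSSCG00000024973, which a table of gene names pairs with GBP1, is given beside the 9 and is counted with none of them.

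The pigs formed 3 feeding groups, with 1 library per pig and 22 libraries in all. WD_S denotes the Western (atherogenic) pattern with atorvastatin (n = 7), HHD_S the heart healthy pattern with atorvastatin (n = 8) and HHD the heart healthy pattern without the drug (n = 7). All pigs ate their diet for 6 months with 38% of energy from fat. The Western pattern held much butter fat, sugar, white flour and cholesterol, and the heart healthy pattern much vegetable oil, whole grain, fiber, fruit and vegetables. Atorvastatin, an inhibitor of cholesterol synthesis, was given to WD_S and HHD_S pigs at 20 mg/day for 3 months and at 40 mg/day for the next 3 months. HHD_S and HHD pigs also received fish oil capsules of 1000 mg. The Western pattern without atorvastatin is not analysed here, and the sex of each pig is not given in the labels, although boars and gilts were both randomized. Nothing in the labels says whether pigs of a group shared a pen. Unless other units are named, levels are CPM, unique exon read counts scaled to a common library size with TMM factors. They are not divided by transcript length, so levels of different genes are not ranked against each other.

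Total counts per library ran from 15316437 in WD_S 7 to 31564022 in HHD 6. Enterocyte genes were abundant in every library (SI, the sucrase-isomaltase gene, at 3750 to 11200 CPM and FABP2, an intestinal fatty acid binding protein, at 3380 to 13100 CPM). Ileal markers were low (FABP6 at 0 to 26.1 CPM and SLC10A2 at 0.104 to 7.97 CPM), with the highest value of each in WD_S 1. The mucosa is a mixture of epithelium, immune cells and stroma, and fewer cells of a type and less RNA per cell cannot be told apart in these bulk samples.

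Interferon gamma is released mainly by activated T cells and natural killer (NK) cells and binds the receptor chains IFNGR1 and IFNGR2. The receptor acts through the kinases JAK1 and JAK2, and the signal switches on IRF1 and a broad set of defence genes. CXCL9, CXCL10 and CXCL11 are secreted chemokines that draw T cells carrying the receptor CXCR3. SOCS1 is induced by the same signal and shuts the kinases off, which closes a feedback loop. These roles are known mostly from human and mouse.

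Between the feeding groups no member passed an adjusted p of 0.05 (edgeR), whereas between pigs of the same group most members differed by several fold. In each group 1 pig stood above the rest: WD_S 7, HHD_S 7 and HHD 7. WD_S 7 had the highest level in its group for 8 of 9 members, HHD_S 7 for 8 of 9 and HHD 7 for 9 of 9, where 21.6%, 17.3% and 22.8% of all genes tested were highest in those libraries. Relative to the median of the other libraries of its group, a member was over 2-fold higher for 7 of 9 in WD_S 7, 8 of 9 in HHD_S 7 and 8 of 9 in HHD 7, against 2.44%, 3.32% and 3.45% of all genes tested. A 4th library, HHD_S 8, was over 2-fold higher for 6 of 9 members, against 2.25% of all genes tested. It was highest of its group for CXCL9 alone, where 17.4% of all genes tested were highest in that library. In the remaining 18 libraries at most 1 member was over 2-fold higher, in HHD_S 5. These libraries were picked out after their values were seen, so their levels are described and not tested as a group. They did not share a pool, as the library number in the deposited names is called here: HHD_S 7 and HHD 7 were in pool 3, and WD_S 7 and HHD_S 8 in pool 4. WD_S 7 was the shallowest of the 22 libraries, and the others of the 4 were of middling depth, with total counts of 22155237 in HHD_S 7, 19154365 in HHD 7 and 19594560 in HHD_S 8.

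**Figure D1:**
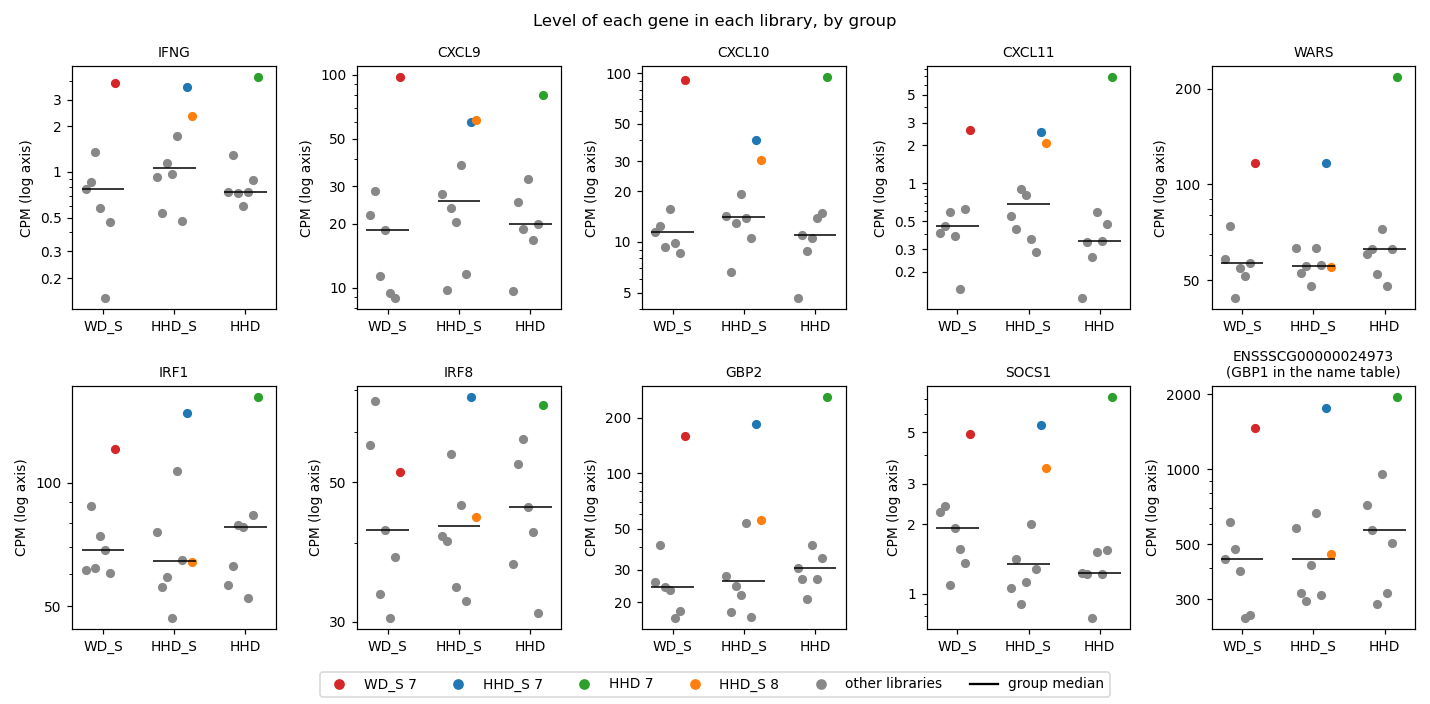
Level of each member and of ENSSSCG00000024973 in each of the 22 libraries (CPM, log axis), with WD_S, HHD_S and HHD from left to right; points are libraries and bars are group medians. The coloured points WD_S 7, HHD_S 7 and HHD 7 are the highest of their groups in nearly every panel, the exceptions being WD_S 7 for IRF8 and HHD_S 7 for CXCL9, and HHD_S 8 lies near HHD_S 7 for CXCL9, CXCL10 and CXCL11 but not for WARS or IRF1.

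IFNG itself (chromosome 5:32477906-32482670 in Sscrofa11.1, as for all coordinates here) was a low gene. It ran from 0.147 through a median of 0.768 to 3.84 CPM in WD_S, from 0.475 through 1.06 to 3.61 CPM in HHD_S and from 0.598 through 0.742 to 4.20 CPM in HHD. The highest value of each group belonged to WD_S 7, HHD_S 7 and HHD 7, followed by HHD_S 8 at 2.33 CPM, and the other 18 libraries lay at or below 1.72 CPM. These levels rest on few reads. The lowest library, WD_S 5, had 3 reads (95% Poisson interval 0.619 to 8.77 reads) and the highest, HHD 7, had 85 (67.9 to 105), so the gap exceeded counting error, which is all that these intervals cover. The mean level ± SD was 1.15 ± 1.25 CPM over the 7 WD_S pigs, 1.46 ± 1.06 CPM over the 8 HHD_S pigs and 1.31 ± 1.29 CPM over the 7 HHD pigs.

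The receptor and kinase genes did not share this pattern. IFNGR1 had 183, 130 and 165 CPM in WD_S 7, HHD_S 7 and HHD 7, within the range of 99.2 to 215 CPM of the other 19 libraries. IFNGR2 had 112, 94.1 and 96.2 CPM in these libraries, again within the others' 82.5 to 175 CPM. JAK2 was likewise within range, and JAK1 had 337, 325 and 288 CPM, the last just under the others' lowest value of 289 CPM.

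IRF1 (chromosome 2:134776122-134783646), a transcription factor made early in the response, ranged from 60.4 through 68.7 to 121 CPM in WD_S, from 46.9 through 64.4 to 148 CPM in HHD_S and from 52.5 through 78.2 to 162 CPM in HHD. The 3 top values were again WD_S 7, HHD_S 7 and HHD 7, and HHD_S 5 came next with 107 CPM. HHD_S 8 was in the middle of its group at 64.0 CPM. IRF8 (chromosome 6:3041617-3060685), a factor that is also present without stimulation in macrophages, dendritic cells and B cells, behaved differently from the other members. It ran from 30.4 through 42.0 to 67.3 CPM in WD_S, from 32.4 through 42.6 to 68.3 CPM in HHD_S and from 31.0 through 45.7 to 66.2 CPM in HHD. WD_S 2 was the highest of the WD_S libraries, WD_S 7 had 51.8 CPM, and the 3 libraries did not stand clear of the rest.

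CXCL9, CXCL10 and CXCL11 lie together on chromosome 8 within 60.1 kb (71665541-71725669). CXCL9 ranged from 8.91 through 18.6 to 97.0 CPM in WD_S, from 9.76 through 25.5 to 61.5 CPM in HHD_S and from 9.64 through 20.0 to 80.5 CPM in HHD. WD_S 7 and HHD 7 were the highest, and HHD_S 8 at 61.5 CPM was level with HHD_S 7 at 59.7 CPM. CXCL10 ranged from 8.59 through 11.4 to 91.7 CPM in WD_S, from 6.65 through 14.0 to 40.4 CPM in HHD_S and from 4.62 through 11 to 94.4 CPM in HHD. Relative to the median of the other libraries of their group, WD_S 7 was 8.58-fold, HHD_S 7 2.92-fold and HHD 7 8.71-fold higher, so HHD_S 7 had the smallest excess of these 3 pigs. CXCL11 was low, from 0.147 through 0.457 to 2.65 CPM in WD_S, from 0.285 through 0.682 to 2.53 CPM in HHD_S and from 0.123 through 0.349 to 6.87 CPM in HHD. HHD 7 had 139 CXCL11 reads (95% Poisson interval 117 to 164) and HHD 1 had 3 (0.619 to 8.77), the widest range of all members.

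The receptor that these chemokines share did not follow them. CXCR3 ran from 3.95 to 9.80 CPM over the 22 libraries, with 5.50 CPM in WD_S 7, 8.49 CPM in HHD_S 7 and 7.12 CPM in HHD 7, and its highest level was in HHD_S 5. CXCR6, a receptor of tissue T cells, was over 2-fold higher in WD_S 7 (1.59 CPM) and in neither HHD_S 7 nor HHD 7. DPP4, a membrane peptidase of the brush border that trims these chemokines, was at 885, 722 and 806 CPM in the 3 libraries, inside the others' range of 449 to 1310 CPM.

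GBP2 (chromosome 4:127387222-127408729), an interferon-induced GTPase that acts against microbes inside cells, ranged from 16.4 through 24.1 to 159 CPM in WD_S, from 16.5 through 25.9 to 184 CPM in HHD_S and from 20.8 through 30.4 to 259 CPM in HHD. WD_S 7, HHD_S 7 and HHD 7 were 6.70-fold, 7.57-fold and 9.04-fold above the median of the other libraries of their group, while the other 19 libraries had at most 55.4 CPM, in HHD_S 8. ENSSSCG00000024973, which lies beside GBP2 on chromosome 4 (127425699-127442132), had 1470, 1760 and 1950 CPM in WD_S 7, HHD_S 7 and HHD 7 and 253 to 955 CPM in the other 19 libraries, with 457 CPM in HHD_S 8. Guanylate binding proteins form a family of related genes. Reads that match several copies are absent from counts of unique reads, so the level of each of these rows is uncertain.

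WARS (chromosome 7:121212981-121238144) encodes the tryptophanyl-tRNA synthetase, a protein synthesis enzyme that is also interferon-inducible. It was even across most pigs, from 43.8 through 56.4 to 117 CPM in WD_S, from 47.8 through 55.5 to 117 CPM in HHD_S and from 48.0 through 62.5 to 217 CPM in HHD. WD_S 7, HHD_S 7 and HHD 7 were 2.11-fold, 2.11-fold and 3.53-fold above the median of the other libraries of their group, and no other library exceeded 73.9 CPM. HHD_S 8 had 55.1 CPM, 0.991 times that median. Other tRNA synthetase genes did not move with it: of 18 tested, 0 were over 2-fold higher in any of these 4 libraries. Their median ratio was 1.08 in WD_S 7, 1.15 in HHD_S 7, 1.12 in HHD 7 and 0.827 in HHD_S 8, with the highest single ratio at 1.98 for CARS in HHD 7.

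**Figure D2:**
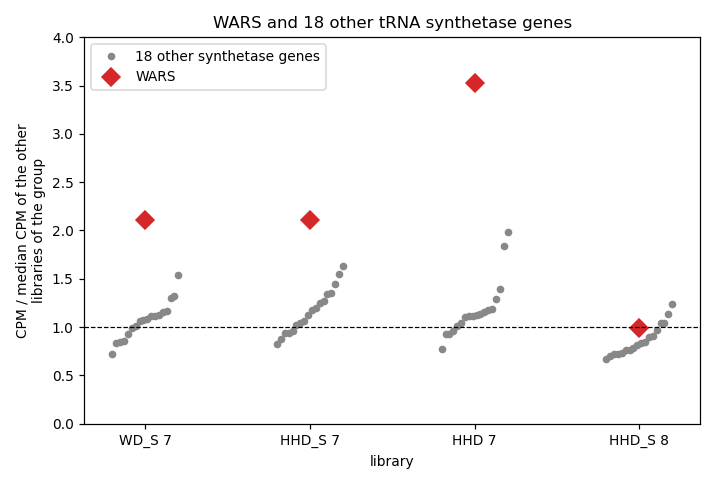
Level of WARS (red diamonds) and of 18 other tRNA synthetase genes (grey points) in WD_S 7, HHD_S 7, HHD 7 and HHD_S 8, each divided by the median of the other libraries of its group (CPM ratio, linear axis from 0). WARS lies at 2.11, 2.11 and 3.53 in the first 3 libraries and at 0.991 in HHD_S 8, and no other synthetase gene passes 1.98.

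SOCS1 (chromosome 3:31879143-31883041), the inhibitor that the signal itself induces, ranged from 1.09 through 1.93 to 4.91 CPM in WD_S, from 0.898 through 1.34 to 5.40 CPM in HHD_S and from 0.784 through 1.23 to 7.12 CPM in HHD. WD_S 7, HHD_S 7 and HHD 7 had the 3 highest values and HHD_S 8 the next, at 3.5 CPM. Among 7 other inhibitors of the pathway, SOCS3 was over 2-fold higher in HHD 7, at 21.1 CPM, and in no other of these 4 libraries; CISH, PTPN1, PTPN2, PTPN6, PTPN11 and PIAS1 did not pass 2-fold in any of them. Of these, PTPN1 (57.0, 56.6 and 56.9 CPM) and PTPN11 (122, 120 and 123 CPM) lay above the other 19 libraries in each of WD_S 7, HHD_S 7 and HHD 7, by a small margin, since the others reached 53.0 and 112 CPM.

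The targets that are not members held a similar pattern. Of 18 tested genes known to respond to interferon gamma, 9 were over 2-fold higher in WD_S 7, 8 in HHD_S 7, 9 in HHD 7 and 0 in HHD_S 8. NOS2, the inducible nitric oxide synthase, had 35.1, 120 and 188 CPM in WD_S 7, HHD_S 7 and HHD 7 and 1.83 to 12.1 CPM in the other 19 libraries. In HHD_S 8 it had 1.87 CPM. CD274, which encodes the immune checkpoint ligand PD-L1, had 19.1, 22.1 and 21.2 CPM in WD_S 7, HHD_S 7 and HHD 7 and at most 5.76 CPM elsewhere. UBD, a ubiquitin-like protein, had 285, 292 and 434 CPM, against 23.7 to 98.1 CPM in the other 19. BATF2, PARP14, CASP1, NLRC5, IRF7, IRF9 and FAS also lay above all 19 other libraries in each of the 3. ICAM1, SOD2 and CIITA did not, and CIITA, which governs class II antigen presentation, had 36.7, 36.1 and 43.3 CPM within the others' 26.0 to 44.4 CPM. These target genes were named for their levels after those were seen.

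**Figure D3:**
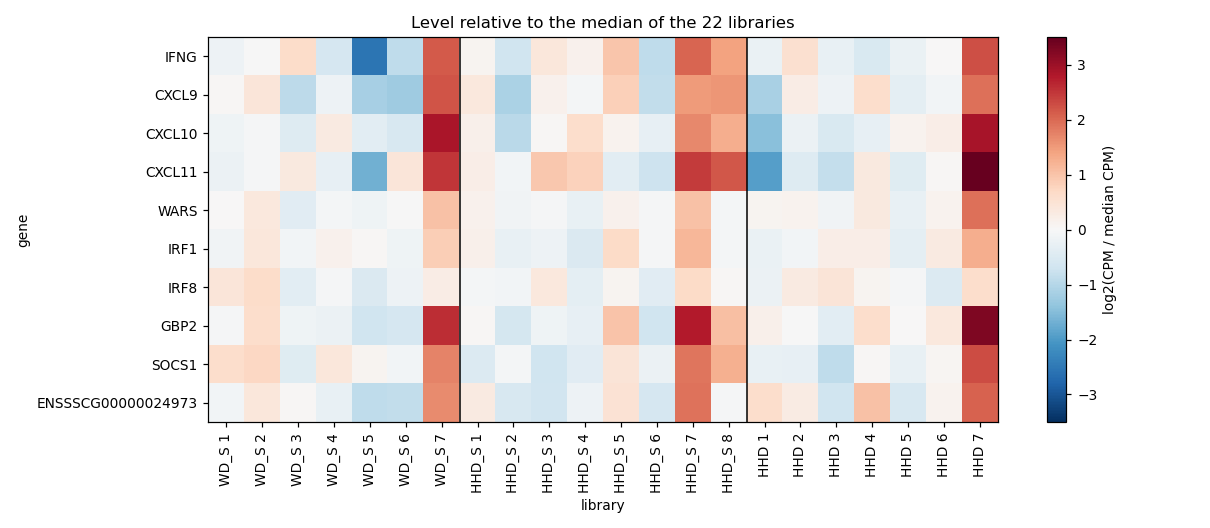
Level of each member and of ENSSSCG00000024973 in each library, as log2 of its CPM over the median of the 22 libraries, with WD_S, HHD_S and HHD libraries from left to right and black lines between groups. Red columns mark WD_S 7, HHD_S 7 and HHD 7; the column of HHD_S 8 is red for IFNG, the CXCL genes, GBP2 and SOCS1 and near white for WARS, IRF1 and IRF8.

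Of 9 tested cytokines, receptors and factors that raise IFNG in T and NK cells, 1 was over 2-fold higher in each of WD_S 7, HHD_S 7 and HHD 7 and 0 in HHD_S 8. IL18RAP, a chain of the interleukin 18 receptor, was that gene in WD_S 7 (1.46 CPM) and in HHD_S 7 (1.05 CPM), and IL12RB2, a chain of the interleukin 12 receptor, in HHD 7 (6.87 CPM). IL12RB1, the other chain of that receptor, had 8.22, 9.58 and 9.39 CPM in WD_S 7, HHD_S 7 and HHD 7. The other 19 libraries had at most 7.31 CPM of IL12RB1. It was the 1 tested upstream gene above all 19 in each of the 3. TBX21, the transcription factor of interferon gamma producing T cells, had 7.69, 8.10 and 7.36 CPM in WD_S 7, HHD_S 7 and HHD 7, inside the others' 3.75 to 9.58 CPM. IL12A, IL12B and IL27 were too low to be tested. IL27 also lay above the other 19 libraries, at 0.663, 0.392 and 0.692 CPM in WD_S 7, HHD_S 7 and HHD 7. The others had 0 to 0.363 CPM of it.

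The spread between pigs was set against that of all genes as the SD of log2 CPM (prior count 2) after the group and pool means were removed. The median over all genes tested was 0.30. CXCL11 had an SD of 1.28 (percentile 99.3), GBP2 1.20 (99.1), CXCL10 1.15 (98.9), CXCL9 1.07 (98.6), IFNG 1.05 (98.5) and SOCS1 0.87 (97.2). WARS at 0.56 (87.0), IRF1 at 0.51 (83.2) and IRF8 at 0.38 (66.3) varied less. With WD_S 7, HHD_S 7 and HHD 7 left out the median of all genes was 0.28, and the SD of WARS was 0.21, at percentile 26.1, while CXCL9 (0.78, percentile 97.1), CXCL11 (0.72, percentile 96.0) and IFNG (0.70, percentile 95.6) were still among the more variable genes. That of IRF8 was 0.35, at percentile 65.3. The setting without these 3 libraries was chosen after the data were seen.

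The first comparison, WD_S with HHD_S, asks how the dietary pattern acts when all pigs receive atorvastatin. No member was called: 0 of 9 passed an adjusted p of 0.05 (edgeR quasi-likelihood test with Benjamini-Hochberg adjustment), where 0% of all genes tested passed. At an unadjusted p under 0.05 there were 0 of 9 members and 2.92% of all genes. Of the 9 members, 4 had a positive and 5 a negative log2 fold change, with a median of -0.01 for the members and of -0.01 for all genes. IFNG had the smallest unadjusted p, with a log2 fold change of -0.36 and an SE of 0.579 (edgeR adjusted p = 0.9995). The 95% interval of its fold ran from 0.338 to 1.79, so a difference of over 2-fold towards HHD_S was not excluded for IFNG. CXCL10 averaged 22.7 ± 30.5 CPM over the 7 WD_S pigs and 18.6 ± 11.4 CPM over the 8 HHD_S pigs (mean ± SD), with a log2 fold change of 0.20 (SE 0.705). Without WD_S 7, HHD_S 7 and HHD 7 it was -0.47 (SE 0.282, edgeR adjusted p = 0.905), so its direction turned with these 3 libraries.

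The second comparison, HHD_S with HHD, isolates atorvastatin within the heart healthy pattern. Here too 0 of 9 members passed the adjusted threshold, beside 0% of all genes tested, and 0 of 9 had an unadjusted p under 0.05, beside 1.81% of all genes. There were 3 positive and 6 negative values, with a median log2 fold change of -0.07 for the members and of 0.01 for all genes. WARS had the smallest unadjusted p. It averaged 63.8 ± 22.2 CPM over the 8 HHD_S pigs and 82.3 ± 60.0 CPM over the 7 HHD pigs (mean ± SD), with a log2 fold change of -0.35 and an SE of 0.295 (edgeR adjusted p = 0.9993). Without WD_S 7, HHD_S 7 and HHD 7 this was -0.09 (SE 0.116, edgeR adjusted p = 0.9638), between 56.1 ± 5.52 CPM over 7 HHD_S pigs and 59.8 ± 8.69 CPM over 6 HHD pigs. CXCL11 had -0.28 (SE 0.767) with all libraries and 1.09 (SE 0.445, edgeR adjusted p = 0.956) without those 3, where its unadjusted p was under 0.05. Its means were then 0.778 ± 0.625 CPM over 7 HHD_S pigs and 0.358 ± 0.165 CPM over 6 HHD pigs, and HHD_S 8 with 2.10 CPM was the highest of these libraries. Without those 3 libraries, 577 of all 13634 genes tested had an unadjusted p under 0.05 in this comparison.

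The third comparison, WD_S with HHD, differs in diet and drug together and shares its libraries with the other 2, so it is no independent evidence. Again 0 of 9 members passed, beside 0.00734% of all genes tested (1 gene, ABCG1), and 0 of 9 had an unadjusted p under 0.05, beside 3.41% of all genes. There were 2 positive and 7 negative log2 fold changes, with a median of -0.15 for the members and of 0.00 for all genes. The smallest unadjusted p was again that of WARS, which averaged 65.1 ± 24.6 CPM over the 7 WD_S pigs and 82.3 ± 60.0 CPM over the 7 HHD pigs (mean ± SD). Its log2 fold change was -0.27 with an SE of 0.322 (edgeR adjusted p = 0.9997). The lowest value was that of CXCL11, at -0.68 (SE 0.889), and without WD_S 7, HHD_S 7 and HHD 7 it was 0.25 (SE 0.489, edgeR adjusted p = 0.9991).

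The intervals differed in width from member to member. For IRF8, the steadiest member, the 95% interval of the fold ran from 0.803 to 1.36 between WD_S and HHD_S, from 0.743 to 1.25 between HHD_S and HHD and from 0.765 to 1.32 between WD_S and HHD, so differences of 1.5-fold or more lay outside it. For IRF1 the widest of the 3 ran from 0.633 to 1.40. For GBP2 the intervals ran from 0.316 to 2.66, from 0.298 to 2.24 and from 0.235 to 2.38 in the same order, and for CXCL11 from 0.232 to 2.49, from 0.272 to 2.48 and from 0.173 to 2.24. Differences of 2-fold in either direction were therefore not excluded for those 2 genes. Their p-values do not show that the groups were alike. ENSSSCG00000024973 was not called either, with log2 fold changes of -0.04 (SE 0.486), -0.32 (SE 0.469) and -0.37 (SE 0.509).

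**Figure D4:**
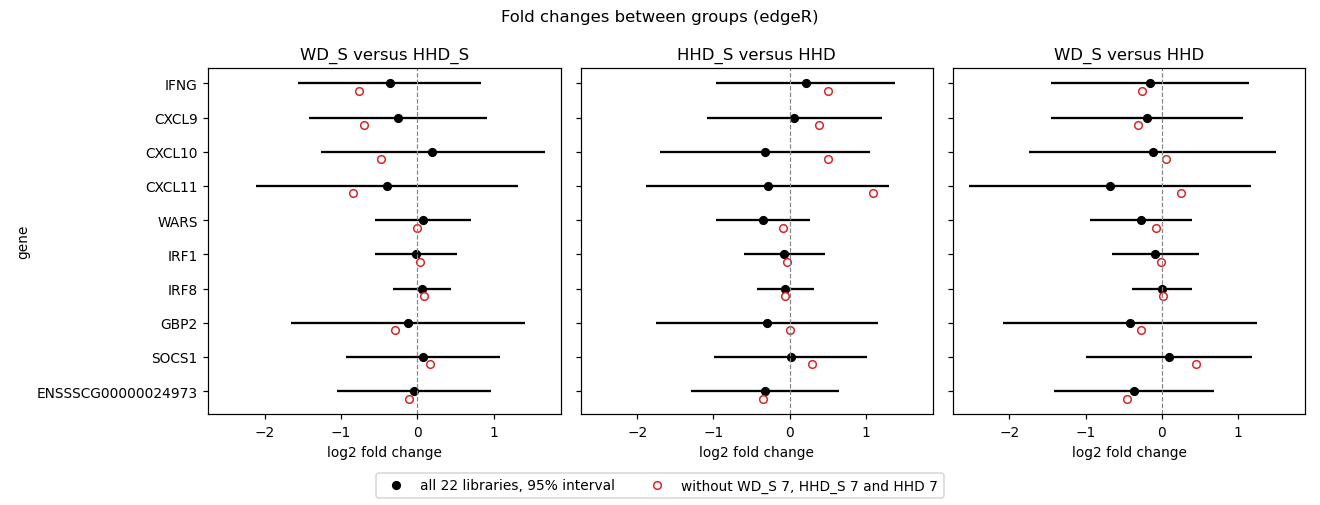
Log2 fold change of each member and of ENSSSCG00000024973 between WD_S and HHD_S, HHD_S and HHD, and WD_S and HHD (black points, with 95% intervals from the edgeR fit of all 22 libraries; positive is higher in the group named first). Every black interval spans 0; the open red points are the values without WD_S 7, HHD_S 7 and HHD 7, with CXCL11 between HHD_S and HHD at 1.09 against -0.28 with all libraries.

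No gene of the pathway lists passed the adjusted threshold in any comparison: 0 of 6 receptor, kinase and STAT genes, 0 of 7 inhibitors, 0 of 9 upstream genes, 0 of 18 further targets and 0 of 8 genes of the chemokine receptor axis. STAT3 was the 1 gene of these lists with an unadjusted p under 0.05, between HHD_S and HHD, at 193 ± 37.2 CPM over the 8 HHD_S pigs and 244 ± 70.4 CPM over the 7 HHD pigs (mean ± SD) and a log2 fold change of -0.31 (SE 0.147, edgeR adjusted p = 0.9993). Median log2 fold changes of the further targets were 0.06, -0.03 and -0.02 in WD_S against HHD_S, HHD_S against HHD and WD_S against HHD. Between WD_S and HHD_S the log2 fold change was 0.54 (SE 0.293) for SOCS3 and 0.37 (SE 0.179) for CISH, both with an edgeR adjusted p = 0.9995. CCR9, the gut homing receptor of T cells, had -0.27 (SE 0.146, edgeR adjusted p = 0.9997) between WD_S and HHD.

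Levels of several members varied together across pigs, and how many pairs did so depended on the high libraries. Because WD_S 7, HHD_S 7 and HHD 7 stood above the rest for most members, no single pair's correlation over all 22 is given. The share of correlated pairs among all genes is not given either, so the counts below are not shown to be particular to the members. Over the 19 libraries without WD_S 7, HHD_S 7 and HHD 7, 33 of 36 pairs had a positive Spearman rho of log2 CPM, with a median of 0.36. Of these pairs 9 passed an adjusted p of 0.05 by Pearson's r, 6 by Spearman's rho and 4 by both (permutation tests with 100000 resamples, two-sided, adjusted over the 36 pairs and both measures). CXCL9 and GBP2 had the closest relation (r = 0.81, permutation p = 4e-05, adjusted p = 0.00288; rho = 0.75, permutation p = 0.00031, adjusted p = 0.00744). Leaving out the 2 libraries farthest from the median of CXCL9 gave r = 0.73. CXCL9 with CXCL10 (r = 0.74, rho = 0.60), IFNG with CXCL9 (r = 0.70, rho = 0.67) and IFNG with GBP2 (r = 0.69, rho = 0.64) were the others past by both measures.

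The pairings of IFNG rested more on a few libraries: without the 2 farthest from its median, r was 0.52 with CXCL9, 0.54 with GBP2 and 0.18 with CXCL11. Over the 17 libraries that also leave out HHD_S 8 and HHD 6, 1 of 36 pairs passed by Pearson's r (CXCL9 with GBP2, r = 0.76, permutation p = 0.00027, adjusted p = 0.0194) and 0 by Spearman's rho (rho = 0.72 for that pair, permutation p = 0.00166, adjusted p = 0.0586). Within pool 3 alone (13 libraries) CXCL9 and GBP2 had r = 0.84 (rho = 0.66) and within pool 4 alone (9 libraries) r = 0.96 (rho = 0.93), each with the high libraries of that pool included. Without the 2 libraries farthest from the median of CXCL9, r was 0.42 in pool 3 and 0.97 in pool 4. Over the 19 libraries IRF8 passed the threshold with CXCL9 by Spearman's rho alone (r = 0.52, rho = 0.62, permutation tests, adjusted p = 0.0847 and 0.0420), and with no other member. Within pool 4 it passed by both measures with CXCL9 (r = 0.85, rho = 0.90), GBP2 (r = 0.86, rho = 0.93) and IFNG (r = 0.84, rho = 0.87), and within pool 3 with CXCL9 (r = 0.69, rho = 0.70).

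Markers of immune cells were set beside the members. The summed level of 19 T and NK cell markers ran from 465 to 1120 CPM in WD_S, from 430 to 1270 CPM in HHD_S and from 677 to 1010 CPM in HHD. WD_S 7 and HHD 7 were the highest of their groups and HHD_S 7, at 1260 CPM, was next to HHD_S 5 at 1270 CPM. Of the 17 markers tested, 16 in WD_S 7, 15 in HHD_S 7 and 15 in HHD 7 lay above the median of the other libraries of the group, with median ratios of 1.45, 1.51 and 1.33, and 11 did in HHD_S 8 with a median ratio of 1.04. The share of all genes above that median is not given, here or for the cell type lists below. Such counts are therefore not shown to be particular to the markers. GZMB, a cytotoxic granule protease, had the highest ratio in each of the 3, at 306, 300 and 190 CPM in WD_S 7, HHD_S 7 and HHD 7; the other 19 libraries had 42.4 to 229 CPM, so HHD 7 was within their range. KLRD1 and NCR1, listed as NK cell markers, were near 0, at 0 to 0.467 CPM and 0 to 0.543 CPM, and were not tested. Other T and NK cell genes of the list were not near 0. In WD_S 7, HHD_S 7 and HHD 7, NKG7 had 48.5, 39.3 and 39.1 CPM (ratios 2.43, 1.86 and 1.91). PRF1 had 16.8, 16.3 and 15.8 CPM there (ratios 1.44, 1.45 and 1.37). KLRK1 had 22.1, 9.93 and 9.98 CPM (ratios 2.83, 0.605 and 0.88). The low levels of KLRD1 and NCR1 therefore do not show that NK cells were absent. The part of T and NK cell numbers in the members' levels was not tested. Over the 19 libraries IFNG followed the summed markers with r = 0.74 and rho = 0.75, given as a description of points that share depth and composition, and IRF1 did not (r = 0.30, rho = 0.08).

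The summed level of 13 macrophage and dendritic cell markers ran from 798 to 1470 CPM in WD_S, from 660 to 1180 CPM in HHD_S and from 637 to 1340 CPM in HHD. WD_S 7 (1330 CPM), HHD_S 7 (1140 CPM) and HHD 7 (1010 CPM) were inside these ranges and highest in none. Of 12 markers tested, 5 in WD_S 7 and 8 in HHD_S 7 were above the median of the other libraries of the group. In HHD 7 and HHD_S 8 these numbers were 5 and 6. The median ratios in WD_S 7, HHD_S 7, HHD 7 and HHD_S 8 were 0.942, 1.20, 0.957 and 0.959. CD163, a scavenger receptor of macrophages, was the 1 marker of the list over 2-fold higher in each of the 4 libraries, at 76.0, 45.1, 122 and 52.7 CPM in WD_S 7, HHD_S 7, HHD 7 and HHD_S 8. IRF8 was the member that followed this sum (r = 0.85 and rho = 0.86 over the 19 libraries), where the other 8 members had rho of -0.17 to 0.36. IRF8 also ran against the summed enterocyte markers (r = -0.66, rho = -0.66). MARCO, another macrophage marker, was near 0, at 0 to 0.597 CPM. The part of macrophages and dendritic cells in these levels was not tested.

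Genes of stroma, vessels and muscle were low in the same libraries, though not in these alone. Of 10 such genes, 0 in WD_S 7, 2 in HHD_S 7 and 0 in HHD 7 were above the median of the other libraries of the group, with median ratios of 0.490, 0.606 and 0.339, and HHD_S 8 had 0 with a median ratio of 0.327. Their sums were 909, 1040, 676 and 636 CPM in WD_S 7, HHD_S 7, HHD 7 and HHD_S 8, where group medians were 1810 CPM in WD_S, 1870 CPM in HHD_S and 2470 CPM in HHD. Low sums were also found in WD_S 3 (1090 CPM), HHD_S 4 (913 CPM) and HHD 5 (1250 CPM). Each of these had 0 of 9 members over 2-fold above the median of the other libraries of the group. Of 9 goblet, tuft and endocrine cell genes, 0 in WD_S 7, 2 in HHD_S 7, 1 in HHD 7 and 2 in HHD_S 8 were above that median, with median ratios of 0.561, 0.877, 0.639 and 0.772. Of 6 plasma cell genes, 4 in WD_S 7, 6 in HHD_S 7, 6 in HHD 7 and 4 in HHD_S 8 were above it, with median ratios of 1.09, 1.80, 1.20 and 1.07. For 13 genes of B cells and follicles the median ratios were 1.08, 1.65, 0.803 and 1.01 in the same libraries. The part of this composition in the members' levels was not tested.

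**Figure D5:**
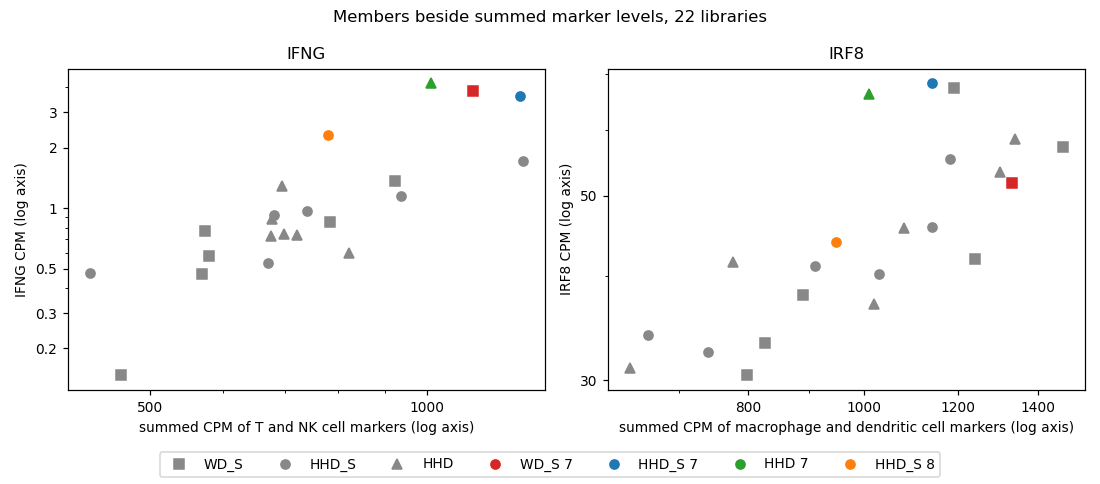
IFNG against the summed level of 19 T and NK cell markers, and IRF8 against that of 13 macrophage and dendritic cell markers, in the 22 libraries (CPM, log axes); squares are WD_S, circles HHD_S and triangles HHD, and the 4 coloured points are the libraries named in the legend. WD_S 7, HHD_S 7 and HHD 7 lie above the grey points for IFNG, whereas for IRF8 the coloured point of WD_S 7 lies among the grey ones and those of HHD_S 7 and HHD 7 lie at the upper edge.

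For each member the 3 genes most alike were sought by Spearman's rho over the 22 libraries. The search covered 11026 named genes whose mean log2 CPM was 1 or more. Because the high libraries weigh on that choice, the values given here are rho over the 19 libraries without WD_S 7, HHD_S 7 and HHD 7, as a description. IFNG was most like CD2 (0.79), P2RX5 (0.81) and CD3G (0.78), of which CD2 and CD3G are T cell surface genes. CXCL9 was most like BATF2 (0.84), CALHM6 (0.80) and ETV7 (0.78), and CXCL10 like USP18 (0.76), ETV7 (0.70) and FOXS1 (0.68). CXCL11 was most like OTUD4 (0.78), NUGGC (0.75) and C5orf30 (0.77).

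GBP2 was most like PSMB9 (0.86), PSMB10 (0.83) and PSMB8 (0.80), the catalytic subunits of the immunoproteasome, which cuts proteins for antigen display. WARS was most like TAP2 (0.81), TAPBPL (0.78) and PSMB9 (0.77), and IRF1 like LGALS3BP (0.81), TAP1 (0.77) and IRF9 (0.76); TAP1 and TAP2 form the peptide transporter of class I presentation. SOCS1 was most like TCIRG1 (0.78), MFSD12 (0.77) and LGALS3BP (0.71). IRF8 was most like MDK (0.86), IL27RA (0.86) and SH3BP2 (0.85), none of which was among the 3 genes of another member. The same held for the 3 genes of IFNG and for those of CXCL11.

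The pig numbers in the sample titles gave a further grouping. HHD 6, HHD 7, HHD_S 7, WD_S 7 and HHD_S 8 carried the 5 highest numbers, 2356, 2357, 2358, 2362 and 2366, and 4 of these 5 were the libraries described above. HHD 6 was not high, with 0.887 CPM of IFNG, 34.5 CPM of GBP2 and 62.8 CPM of WARS, where the 17 lower-numbered libraries had 0.147 to 1.72, 16.4 to 53.5 and 43.8 to 73.9 CPM. What the numbers stand for is not stated in the labels, and their part in the members' levels was not tested. Over the 17 lower-numbered libraries alone, 0 of 9 members passed the adjusted threshold in any comparison. SOCS1 was the 1 member with an unadjusted p under 0.05, at a log2 fold change of 0.56 (SE 0.249, edgeR adjusted p = 0.6815) in WD_S over HHD. Of all 13678 genes tested there, 990 had an unadjusted p under 0.05 in that comparison. This setting, too, was chosen after the data were seen.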

How the data were processed

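Per the labels' protocols, jejunal mucosa RNA with a quality indicator above the stated minimum was made into TruSeq libraries, sequenced as single reads of 150 bases and processed in CLC Genomics Workbench against Sscrofa11.1; the mapping settings were not stated there. Per the file headers, each deposited table lists, gene by gene, whole-number counts of reads mapped uniquely to exons. Groups came from the diet labels; the series text ties an abbreviation in the titles to the Western pattern without drug, and the sample labels were followed. Names came from the files (17332 genes) and a table of gene names (1049 more), and 5977 rows had none. Coordinates are RefSeq gene spans. Gene and promoter sequences and transcript lengths were not used here.

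Counts were analysed with edgeR 4.0.16 (R 4.3.3): filterByExpr with a minimum count of 10, TMM scaling, and a robust quasi-likelihood fit of all 22 libraries with group and library pool (3 or 4, from the deposited names), leaving 13626 genes and 18 residual degrees of freedom (BCV 25.9%). Benjamini-Hochberg adjustment covered every gene in the fit. DESeq2 1.42.0 and limma 3.58.1 were alternatives. Library ratios used CPM plus 0.1. The scripts were checked on simulated data. No pair of the 22 libraries agreed within sampling noise.

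The members, gene lists and tests were chosen with earlier results of these data known. Genes named from the other lists were the 2 with the smallest p per list and comparison, or, where the text says so, were picked after their values were seen, as were the levels of single list genes in WD_S 7, HHD_S 7, HHD 7 and HHD_S 8. Some genes of the lists are not reported here.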

Additional observations from a re-analysis of the deposited data

Results flagged for a closer look

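In groups of 7 or 8 libraries a value was singled out when its gap to the nearest other library, divided by the range of the group, passed the 95% critical value of Dixon's test. Of 30 gene and group combinations (9 members and ENSSSCG00000024973 in 3 groups), 20 were singled out, all for the highest value, and all 20 lay in WD_S 7, HHD_S 7 or HHD 7. For normally distributed values chance singles out about 1 group in 20. Here the values were CPM without logs, and the share singled out over all genes is not given. These 3 libraries had also been noticed by the same values. The 20 are therefore a description and no test, and they are not independent, since the members vary together.

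In WD_S 7 these were IFNG at 3.84 CPM, CXCL9 at 97.0 CPM, CXCL10 at 91.7 CPM, CXCL11 at 2.65 CPM, WARS at 117 CPM, GBP2 at 159 CPM, SOCS1 at 4.91 CPM and ENSSSCG00000024973 at 1470 CPM. In HHD_S 7 they were WARS at 117 CPM, GBP2 at 184 CPM and ENSSSCG00000024973 at 1760 CPM. In HHD 7 they were IFNG at 4.20 CPM, CXCL9 at 80.5 CPM, CXCL10 at 94.4 CPM, CXCL11 at 6.87 CPM, WARS at 217 CPM, IRF1 at 162 CPM, GBP2 at 259 CPM, SOCS1 at 7.12 CPM and ENSSSCG00000024973 at 1950 CPM. In HHD_S the second highest library, HHD_S 8, narrowed the gap for IFNG (2.33 CPM), CXCL10 (30.7 CPM), CXCL11 (2.10 CPM) and SOCS1 (3.5 CPM). IRF8 was singled out in no group. The 3 groups of WARS were all singled out, with the gap at 0.588, 0.776 and 0.855 of the range in WD_S, HHD_S and HHD.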

How the results depend on the processing

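No member passed an adjusted p of 0.05 (edgeR) under any alternative, DESeq2 and limma-voom included, so the count of members called was 0 of those tested throughout; a minimum count of 50 kept 6 members, and comparing WD_S with HHD alone kept 8. Fold changes often turned sign, and not only those near 0. CXCL11 in WD_S over HHD had -0.68 with all libraries and 0.96 in pool 4 alone. The cause was not tested. The low depth of IFNG, CXCL11 and SOCS1 and the spread between pigs limit what could be seen. The settings without WD_S 7, HHD_S 7 and HHD 7, under pig number 2356 and with a term for it were chosen after seeing the data. No paired analysis was possible because the labels carry no replicate numbers, and those used here only name samples.

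Over all genes, WD_S against HHD_S gave 2 calls without the pool term, 4 by DESeq2, 1 by limma, 1 without the 3 libraries, 2 under pig number 2356 and 2 with the term for it, with 0 to 2 when 1 library was left out (2 without WD_S 7, 1 without WD_S 3, HHD_S 8 or HHD 7). HHD_S against HHD gave 1 by DESeq2. WD_S against HHD gave 0 in pool 3 alone, 0 in pool 4 alone, 0 with total counts, 2 by DESeq2, 0 without the 3 libraries, 2 with the term for pig number, and 0 to 1 when 1 library was left out. Members with an unadjusted p under 0.05 numbered 0 to 1 when 1 library was left out, for WD_S against HHD_S (IFNG at -1.10 without WD_S 7) and for HHD_S against HHD (CXCL11 at 1.48 without HHD 7). They numbered 1 for HHD_S against HHD without the 3 libraries (CXCL11) and 1 for WD_S against HHD under pig number 2356 (SOCS1). Over all genes tested, those numbers were 650 of 13680 without WD_S 7 and 342 of 13675 without HHD 7. They were 577 of 13634 without the 3 libraries and 990 of 13678 under pig number 2356, each in the comparison named. limma gave 899, 1274 and 1290 genes at an unadjusted p under 0.05, against 398, 247 and 465 by edgeR, in the 3 comparisons.

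Of the 36 member pairs, those past an adjusted p of 0.05 (permutation tests) numbered 36 by Pearson's r and 26 by Spearman's rho over all 22 libraries. They numbered 9 and 6 without the 3 libraries, 31 and 14 in pool 3, 22 and 9 in pool 4, 1 and 0 under pig number 2356, 23 and 12 without the 2 libraries farthest from the median, and 36 and 32 for residuals after group and pool. No share among pairs of all genes stands beside these counts.

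Log2 fold changes that turned sign were as follows. Without the pool term (WD_S over HHD), these were CXCL10 0.01 and IRF8 -0.06. In pool 3 alone (WD_S over HHD_S), these were CXCL10 -0.74, IL18R1 0.12, SOCS1 -0.03 and WARS -0.18. In pool 3 alone (HHD_S over HHD), these were CXCL9 -0.13, IFNG -0.11 and SOCS1 -0.25. In pool 3 alone (WD_S over HHD), these were IL18R1 0.40, IRF7 -0.08 and SOCS1 -0.29. In pool 4 alone (WD_S over HHD_S), these were ENSSSCG00000024973 0.31, GBP2 0.37, IL15 0.0032, IRF1 0.04 and IRF8 -0.01. In pool 4 alone (HHD_S over HHD), these were ACKR3 0.17, CXCL10 0.59, CXCL11 0.96, GBP2 0.31, IRF1 0.27 and SOCS3 0.03. In pool 4 alone (WD_S over HHD), these were CXCL10 1.37, CXCL11 0.96, CXCL9 0.45, GBP2 0.69, IFNG 0.84, IRF1 0.31, IRF8 -0.10 and WARS 0.22. With the 2 compared groups alone (WD_S over HHD_S), these were CXCL10 -0.01. With total counts in place of TMM (WD_S over HHD), these were IRF8 -0.02. Without WD_S 7, HHD_S 7 and HHD 7 (WD_S over HHD_S), these were CXCL10 -0.47 and IRF1 0.03. Without WD_S 7, HHD_S 7 and HHD 7 (HHD_S over HHD), these were CXCL10 0.51, CXCL11 1.09 and GBP2 0.01. Without WD_S 7, HHD_S 7 and HHD 7 (WD_S over HHD), these were CXCL10 0.05 and CXCL11 0.25. Over pigs numbered under 2356 (WD_S over HHD_S), these were CXCL10 -0.22 and IRF1 0.01. Over pigs numbered under 2356 (HHD_S over HHD), these were CXCL10 0.42, CXCL11 0.70 and IRF1 0.05. Over pigs numbered under 2356 (WD_S over HHD), these were CXCL10 0.20, CXCL11 0.40, IRF1 0.06 and IRF8 -0.06. With a term for pigs numbered 2356 and above (WD_S over HHD_S), these were ENSSSCG00000024973 0.02 and IRF1 0.05. With a term for pigs numbered 2356 and above (HHD_S over HHD), these were CXCL10 0.17 and CXCL11 0.24. With a term for pigs numbered 2356 and above (WD_S over HHD), these were CXCL10 0.25, CXCL11 0.16, IFNG 0.05 and IRF1 0.04.

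With 1 library left out at a time, 30 of 59 fold changes turned sign at least once. For WD_S over HHD_S these ranges were CXCL10 -0.68 to 0.43, CXCL11 -1.13 to 0.12, ENSSSCG00000024973 -0.53 to 0.35, GBP2 -0.97 to 0.46, IRF1 -0.16 to 0.17, IRF8 -0.04 to 0.17, SOCS1 -0.23 to 0.43 and WARS -0.14 to 0.22. For HHD_S over HHD these ranges were CXCL10 -0.69 to 0.81, CXCL11 -0.70 to 1.48, CXCL9 -0.23 to 0.60, ENSSSCG00000024973 -0.82 to 0.10, GBP2 -1.17 to 0.76, IFNG -0.20 to 0.81, IRF1 -0.30 to 0.18, IRF8 -0.15 to 0.03, SOCS1 -0.46 to 0.72 and WARS -0.54 to 0.09. For WD_S over HHD these ranges were CXCL10 -0.89 to 0.85, CXCL11 -1.33 to 0.91, CXCL9 -0.80 to 0.30, ENSSSCG00000024973 -0.83 to 0.0014, GBP2 -1.17 to 0.48, IFNG -0.79 to 0.40, IL18R1 -0.34 to 0.12, IRF1 -0.21 to 0.14, IRF8 -0.10 to 0.11, PTPN6 -0.0027 to 0.14, SOCS1 -0.17 to 0.75 and WARS -0.46 to 0.12.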

Other observations

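Genes other than the members were also high in WD_S 7, HHD_S 7 and HHD 7. Considered were 11026 named genes whose mean log2 CPM was 1 or more. Of these, 76 (0.689%) were over 2-fold above the median of their group's other libraries in WD_S 7, HHD_S 7 and HHD 7 alike. Without that limit on level, 7 of the 9 members were over 2-fold in all 3 libraries. IFNG, CXCL11 and SOCS1 are among those 7 but lie below the limit, so they are not among the 76. Apart from EIF1AY, the genes ranked first by the lowest of their 3 ratios were HERC5 (23.5-fold, 17.0-fold and 11.2-fold in WD_S 7, HHD_S 7 and HHD 7), IFI6 (17.4-fold, 21.2-fold and 10.3-fold) and NOS2 (9.89-fold, 44.1-fold and 57.3-fold). These genes were chosen after their values were seen.

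In HHD_S 8 these genes differed in their ratios. It was 10.1-fold higher for HERC5, 4.28-fold for MX1, 5.50-fold for OAS2 and 3.79-fold for ISG15, while its ratio was 0.582 for NOS2, 1.45 for CD274, 1.49 for UBD, 1.56 for BATF2, 0.991 for WARS and 0.988 for IRF1. Of the members, 6 of 9 were over 2-fold there, beside 2.25% of all genes tested, among them GBP2 at 2.28 and CXCL10 at 2.22. The difference between these sets of genes in this 1 library was not tested. SPP1, which encodes the secreted protein osteopontin, was 16.7-fold, 5.61-fold and 7.66-fold higher in WD_S 7, HHD_S 7 and HHD 7 and 5.93-fold in HHD_S 8.

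EIF1AY, a gene of the Y chromosome, was at 1 CPM or more in 10 libraries and below it in 12. WD_S 7 (81.7 CPM), HHD_S 7 (71.7 CPM) and HHD 7 (74.5 CPM) were among the 10, and HHD_S 8 and HHD 6 were at 0. The other 7 of the 10 libraries were not high for the members.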
